A study of Drosophila melanogaster with 3 samples.

Results

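The protein studied, encoded by caup, belongs to the Iroquois transcription factors, made by a small group of neighbouring Drosophila genes known for patterning sensory bristles, the eye and the body wall. A transcription factor finds its sites by short DNA words, and at promoters it shares the DNA with the general machinery that starts transcription. Iroquois proteins carry a homeodomain of the TALE type and are known for binding a palindrome written ACANNTGT. Chromatin immunoprecipitation followed by sequencing (ChIP-seq) counts DNA fragments recovered with a tagged protein, and a peak is a stretch where recovered fragments pile up over a control.

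The peaks described here are the 300 of highest signal value among 6056 in the dm6 set that the authors kept for reproducibility, and they were selected on that deposited signal value alone. The other 5756 peaks of the same set are called the rest. The samples were 3 biological replicates of whole Drosophila melanogaster embryos, both sexes pooled, collected between 0 and 24 h, from 1 transgenic line that expresses caup with green fluorescent protein at its C terminus. Recovery used the tag, fragments were kept between 200 and 800 bp, and the embryos were not sorted by cell type or stage. There was 1 group and no second genotype, and the control alignment of each replicate is not analysed here. The labels do not say whether the untagged caup gene was still present or what drives the fusion. Library depth is unknown because these lists hold no read counts.

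The DNA under the strongest summits (the base of highest pile-up in a peak) is shown first, because sequence around the summit is one point on which the 300 and the rest differed. The 6 windows run from 50 bp before to 50 bp after the summit on the forward strand of dm6, read from the RefSeq sequence of assembly release 6, and come from 6 of the 7 strongest peaks. Capitals mark words of 6 bases whose share differed between the 300 and the rest, on either strand. Most of the 6 windows are rich in A and T, with runs of A and of T, and those nearest to cbt, Trl and jp hold no such word. The shares were counted in wider windows, of 100 bp to each side. In those, the Trl peak holds TTAAAA and TTTAAA, the jp peak holds TTAAAA and the cbt peak holds none.
CG11050 intron, chr2L:6612657-6612757: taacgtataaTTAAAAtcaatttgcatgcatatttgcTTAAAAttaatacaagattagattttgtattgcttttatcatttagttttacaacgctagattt
ush intron nearest to cbt, chr2L:481006-481106: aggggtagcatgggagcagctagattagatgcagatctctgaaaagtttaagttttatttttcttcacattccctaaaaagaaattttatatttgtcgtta
CG14100 promoter, chr3L:19590568-19590668: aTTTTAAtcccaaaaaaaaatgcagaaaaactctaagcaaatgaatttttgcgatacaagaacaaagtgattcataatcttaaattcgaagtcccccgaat
Trl intron, chr3L:14759467-14759567: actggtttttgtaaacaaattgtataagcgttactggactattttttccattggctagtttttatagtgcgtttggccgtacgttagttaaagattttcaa
lncRNA:CR44619 promoter, chrX:12751279-12751379: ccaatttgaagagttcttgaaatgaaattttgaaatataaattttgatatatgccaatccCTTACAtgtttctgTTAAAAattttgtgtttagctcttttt
jp promoter, chr2L:9567462-9567562: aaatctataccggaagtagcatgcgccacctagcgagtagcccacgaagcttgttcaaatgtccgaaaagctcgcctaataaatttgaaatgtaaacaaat

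A second set shows a word rich in G and C that was found in 20 of the 300 windows, CTACGCC or its reverse complement GGCGTAG. The 8 windows of 30 bases come from strong peaks with the word, each read on the strand named, with the word in capitals. In several of them the word is followed within a few bases by TG.
Ugalt, chrX:2703952-2703981, forward: tttaaagcaagCTACGCCcatggcgtgcag
CG14100, chr3L:19590669-19590698, forward: cagaaacttcaCTACGCCcatgcaagcagt
CG9663, chr2L:3302221-3302250, forward: aaaccccctttCTACGCCactggcataaac
Tlk, chrX:3742110-3742139, reverse: ccctgcacactcCTACGCCtgcactcatgt
CHMP2B, chr3L:5139556-5139585, forward: aaacttaccatCTACGCCcatgatttcatt
amon, chr3R:26714439-26714468, forward: aatccacccgaCTACGCCcctgctcgccta
MFS10, chrX:13131315-13131344, forward: ttcccaaagaaCTACGCCatcattctatcg
mRpL23, chr3L:2373518-2373547, reverse: gcgacccccttgCTACGCCtgtgtccgccc

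The palindrome known for Iroquois proteins is shown at 5 strong peaks that hold it, with its 8 bases in capitals. Read on both strands, these are 3 distinct sequences, since the site at jp is the reverse complement of that at Gapdh2, and the site at lncRNA:CR31840 that of the one at CenG1A.
jp, chr2L:9567547-9567576, forward: tgaaatgtaaACAAATGTtgttggaaagct
lncRNA:CR31840, chr2L:14024068-14024097, forward: tgtacagagtACACATGTtatttgattttc
CenG1A, chr2L:13835403-13835432, forward: tcccgtgattACATGTGTgtctggtgtaat
Gapdh2, chrX:15867907-15867936, forward: atcccaataaACATTTGTccgtataaatta
CG13390, chr2L:8376949-8376978, forward: atccccgtctACACCTGTggaaaatcacct

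The signal value is the authors' enrichment statistic on a scale that is not given, so it serves to rank peaks within 1 list. Among the 300 it ran from 1197 to 6496 with a median of 1677, while the rest reached from 209 to 1192 with a median of 322. The threshold fell in a continuous series. The 5 peaks just inside were nearest to Ptpmeg2 (1212), mub (1209.7), prage (1200.3), lncRNA:CR45541 (1197) and by (1197), and the 5 just outside to lncRNA:CR43437 (1192), CG18622 (1188), CAH3 (1188), CG42394 (1185) and osp (1185). The deposited −log10 q value does not order the 300, since all of them are tied at its maximum, as are 95.8% of the rest.

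The strongest peak, chrX:2703664-2704102, had its summit 26 bp upstream of a transcription start site (TSS) of Ugalt, which encodes a UDP-galactose transporter. Its signal value was 2337 in replicate 1, 1684 in replicate 2 and 2492 in replicate 3, and it ranked 1, 1 and 2 in the 3 lists. The second peak, in an intron of CG11050, had 2175, 1612 and 2469 in replicates 1, 2 and 3. The third lay inside ush, which encodes a partner of GATA factors, and its nearest TSS, at 1368 bp, was that of cbt, a zinc finger transcription factor. It had 1891, 1459 and 2555, the highest value of replicate 3. The peak 94 bp upstream of CG14100 ranked 4 in each list, with 1890.2, 1459 and 1940.

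The next peak, in an intron of Trl, whose product is the GAGA factor, had 1154 in replicate 1, 1254 in replicate 2 and 1850.1 in replicate 3. It ranked 23 in replicate 1 and 5 in both others, so replicates placed it less evenly than the 4 above it. Values of different replicates are not scaled to each other and are compared here only through ranks. The remaining peaks of the first 30 were nearest to lncRNA:CR44619, jp, px, mRpL41, Lk6, PNPase, CG9663, lncRNA:CR31840, SLC5A11, CG32772, Chro, sbb, CenG1A, Tlk, ph-p, RpS27, Alg3, Hsp83, Gapdh2, sp3, CHMP2B, CG1888, CG18549, Art3 and amon. These include a junctophilin (jp), a kinase of the translation factor eIF4E (Lk6), a mitochondrial polynucleotide phosphorylase (PNPase), a chromatin kinase (Tlk), the fly Hsp90 (Hsp83), a glycolytic enzyme (Gapdh2) and an ESCRT subunit (CHMP2B).

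The replicates ranked the 300 alike. Of all 6056 peaks, 234, or 3.86%, ranked among the first 300 of all 3 replicate lists, and 228 of those were among the 300 described here. A further 61 ranked there in 2 replicates and 11 in 1. The combined signal came from the pooled alignments of the same replicates, so these counts are a description and support nothing. Median ranks were 150.5 in replicate 1, 150 in replicate 2 and 149.5 in replicate 3, and the worst were 1317, 599 and 553. With a wider limit, 299 of the 300 lay in the first 6056 of every replicate list, against 62.7% of all 6056 peaks.

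**Figure D1:**
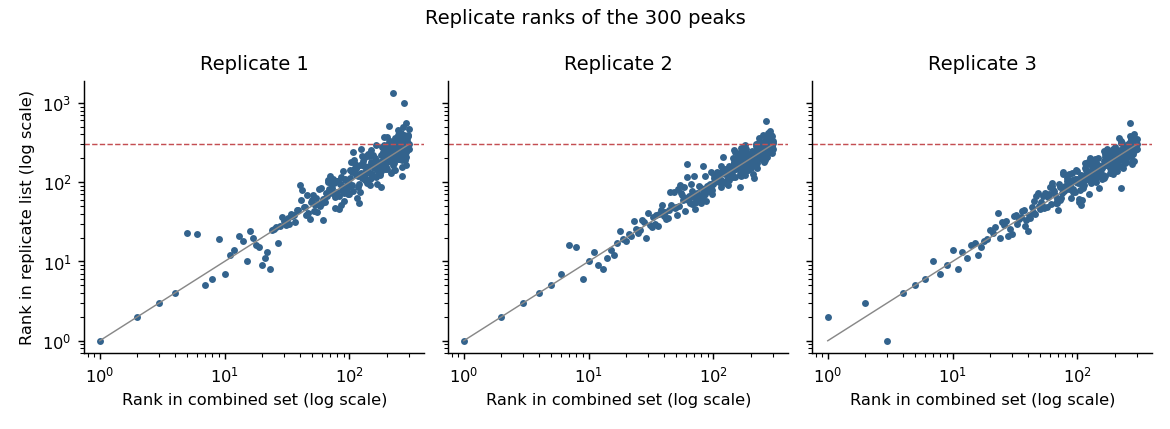
Rank of each of the 300 peaks in the combined set (horizontal, log scale) against its rank in each replicate list (vertical, log scale). The grey line marks equal ranks and the dashed line rank 300. Replicate 1 holds the 2 most distant points, at ranks 996 and 1317.

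The 5 peaks with the largest ratio of worst to best rank were nearest to CG11811 (ratio 15.5, from regions partly shared with another peak), C1GalTA (5.89), shn (5.15), Hsp83 (5.12) and lncRNA:CR45695 (4.69). The CG11811 peak, at rank 225 in an intron of simj, lies 199 bp from a stronger peak of the 300, at rank 148. In replicates 2 and 3 both peaks fell in 1 region, at rank 152 and 85, whose summit was 153 and 152 bp from the weaker peak and 46 and 47 bp from the stronger. In replicate 1 each had its own region, at rank 1317 for the weaker and 256 for the stronger. The ratio of 15.5 thus sets regions of different summits against each other and is no measure of how unevenly the replicates ranked 1 peak. No other members shared a replicate region with each other, but some shared one with a peak of the rest. The best ranks found in the rest, 14 in replicate 1 and 8 in replicate 2, are those of the members at CG9663 and lncRNA:CR31840. C1GalTA, a galactosyltransferase gene, ranked 996, 302 and 169 in replicates 1, 2 and 3, whereas Hsp83 went the other way with ranks 8, 32 and 41. The peak at brwl had no region in replicate 2 and ranked 293 in replicate 1 and 128 in replicate 3.

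Summits of the 300 moved little between lists. The median shift from the combined summit was 6, 8 and 7 bp in replicates 1, 2 and 3, against 17, 15 and 15 bp for the rest. Some peaks of the rest were matched to a region shared with a member, so not every shift there is of the same summit. Median width was 391.5 bp, from 255 to 916 bp. Just 1 of the 300 was exactly 420 bp wide, a width that 57.6% of the rest share, so width is not a continuous measure in this file and was not compared further. The widest, 916 bp, was at lncRNA:CR44619.

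Most of the 300 lay at promoters, here within 1 kb of a TSS. Their share was 237 of 300, or 79.0% (95% Wilson interval 74.0 to 83.2%), against 60.2% of the rest. The difference of 18.8 percentage points (95% Newcombe interval 13.7 to 23.2) excluded 0 also at the level adjusted over 40 shares of location, context and motif compared, of which 4, or 10%, differed. Introns held 43 of the 300, or 14.3%, against 29.0%, a difference of -14.7 points (-18.4 to -10.1) that also differed. A promoter summit cannot be classed as intron, so these differences are not separate results. Outside promoters, introns held 43 of 63 summits of the 300 and 1669 of 2292 of the rest, which was not tested. Intergenic summits made up 17 (5.67% against 9.02%), coding exons 2 (0.667% against 0.174%) and untranslated exons 1 (0.333% against 1.63%), and none of these 3 differed at the adjusted level.

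The shares changed with rank across the whole file. Promoter summits made up 84.0% of ranks 1 to 50, 75% of ranks 201 to 300, 74.7% of ranks 301 to 600 and 55.8% of ranks 3001 to 6056. Intron summits were 14%, 18%, 19% and 31.6% in the same classes. The limit at 300 thus cuts a gradient and marks no step.

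**Figure D2:**
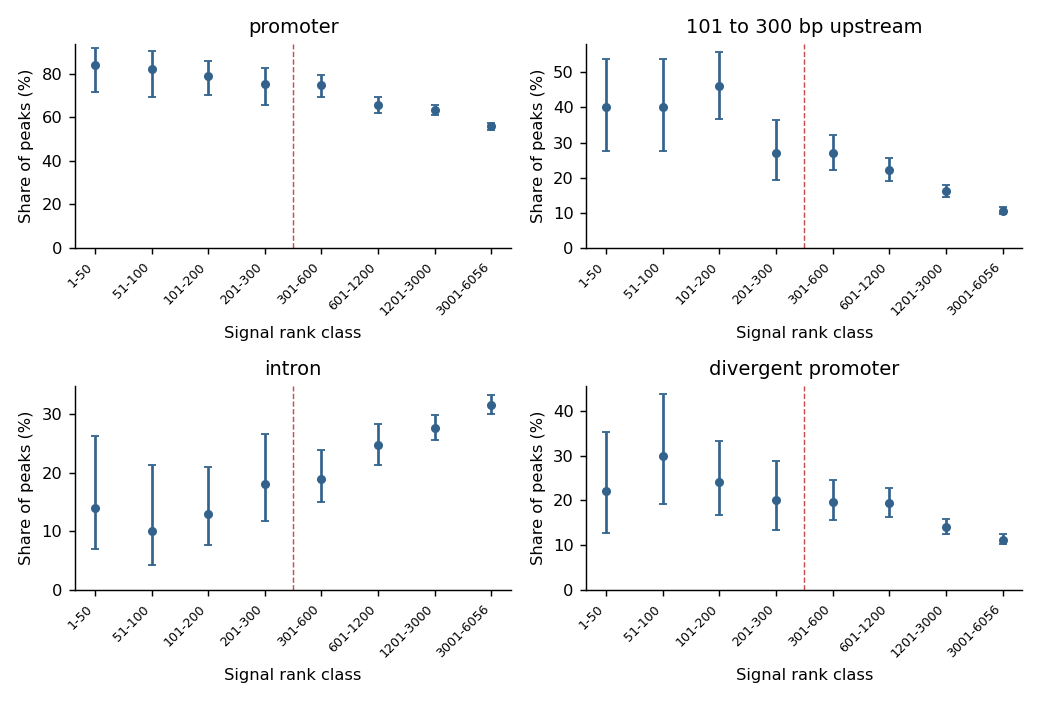
Share of peaks (vertical, percent) in 8 classes of signal rank (horizontal), for promoter summits, summits 101 to 300 bp upstream of the nearest TSS, intron summits and divergent promoters. Points are shares, bars are 95% Wilson intervals, and the dashed line separates the 300 from the rest. Promoter and upstream shares are higher among stronger ranks (84.0% and 40.0% in ranks 1 to 50), and intron shares are lower (14%).

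The 300 also differed from the rest in their position within promoters. Summits within 100 bp of a TSS were no more common, at 23.3% against 26.9% (difference -3.53 points, -8.11 to 1.70). Ribosomal protein genes held 25 of these 70 summits of the 300, and 51 of 1546 in the rest. The share without those genes was not compared. Farther upstream, summits were more common. All 20 bins of 100 bp from 1000 bp upstream to 1000 bp downstream were compared, a comparison added after the distances were seen, and 2 of the 20 (10%) differed at the level adjusted over the bins. From 101 to 200 bp upstream lay 73 of the 300, or 24.3%, against 9.57% of the rest. From 201 to 300 bp upstream lay 40, or 13.3%, against 4.85%.

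Joined, 113 of the 300 (37.7%) had a summit 101 to 300 bp upstream of the nearest TSS, against 14.4% of the rest, which is 2.61 times the share. Among promoter summits alone the shares were 47.7% and 24.0%. Leaving out divergent promoters gave 38.3% against 13.1%. Upstream promoter summits of the 300 lay at a median of 156 bp from the TSS (quartiles 99 and 235 bp), and those of the rest at 125 bp (58 and 282 bp). Named examples among the first 30 are px, a wing vein gene (195 bp upstream), mRpL41 (138 bp), SLC5A11 (146 bp), Hsp83 (111 bp), Gapdh2 (154 bp), CHMP2B (109 bp), CG1888 (227 bp), CG18549 (115 bp), the arginine methyltransferase gene Art3 (122 bp) and amon (219 bp), which encodes a prohormone convertase.

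**Figure D3:**
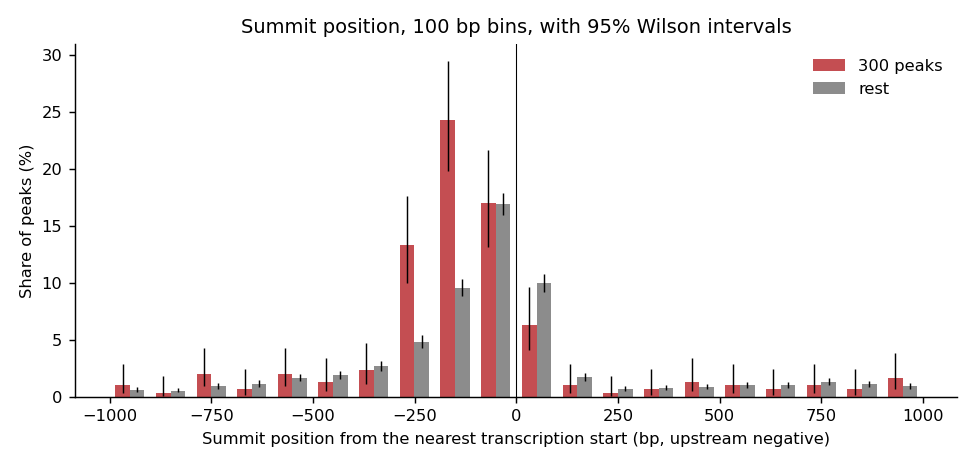
Share of peaks (vertical, percent) by the position of the summit from the nearest TSS in 100 bp bins (horizontal, upstream negative), for the 300 and the rest. Bars are shares with 95% Wilson intervals. The 300 exceed the rest in both bins between 300 and 101 bp upstream, at 13.3% against 4.85% and 24.3% against 9.57%.

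Divergent promoters, where a start site on each strand lies close to the summit with the genes pointing away from each other, held 70 of the 300, or 23.3%, against 13.4%. The difference of 9.90 points (5.38 to 15.1) passed the adjusted level. Chro, which encodes the chromosomal protein Chromator, CenG1A, a GTPase-activating protein gene, RpS27, CHMP2B and Art3 are such cases among the first 30. Among promoter summits alone the shares were 29.5% and 22.3%, with a difference of 7.22 points (1.59 to 13.5) that does not pass the adjusted level. Of the 70 members at divergent promoters, 16 were at ribosomal protein genes, and the share without those genes was not compared.

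Of the 63 peaks outside promoters, 44 (69.8%) had a TSS no more than 5 kb away, and 65.2% of such peaks in the rest did. Their median distance was 2804 bp, against 3389 bp in the rest. The strongest in introns were those of CG11050, ush, Trl, CG32772 and sbb, a regulator of transcription. The 5 farthest from a TSS were a pair of intergenic peaks nearest to CG43245 at 32079 and 19128 bp, the sbb peak at 20112 bp, an intergenic peak nearest to CG13323 at 11975 bp and an intron of Hr4, a nuclear receptor gene, at 9975 bp. The 2 coding exon summits lay in otp, a homeobox gene (rank 58), and in Pde1c, a phosphodiesterase gene (rank 83). The 1 untranslated exon belonged to baz, a polarity gene.

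Nearest genes were protein-coding for 276 of the 300, or 92.0%, non-coding RNA genes for 23 and a tRNA gene for 1. In the rest, 88.0% were protein-coding. The strongest at non-coding RNA genes were at lncRNA:CR44619, lncRNA:CR31840, lncRNA:CR31044 and lncRNA:CR44339, and a second peak at lncRNA:CR44619. The tRNA peak was that of tRNA:Tyr-GTA-1-8 at rank 118. The 300 had 287 distinct nearest genes. No gene was nearest to 3 or more, and 13 were nearest to 2, so members are not independent at those genes.

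Genes of the cytoplasmic ribosome were the list with the most members. They were nearest to 25 of the 300, or 8.33% (95% Wilson interval 5.71 to 12.01%), and to 57 of the rest, or 0.990% (0.765 to 1.28%). These were 25 of the 93 such genes annotated, 19 of the large and 6 of the small subunit, and 76 of the 93 were nearest to some peak of the 6056. The share was 4% in ranks 1 to 50, 8% in ranks 51 to 100, 15% in ranks 101 to 200, 4% in ranks 201 to 300, 6.33% in ranks 301 to 600 and 0.393% in ranks 3001 to 6056. The list is described by its counts, without a test.

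The strongest were RpS27 (rank 21), RpL7 (rank 47), RpL23A (rank 52) and RpL14 (rank 55). RpS27, chr3R:25247284-25247782, had signal values of 1288, 845 and 1222 in replicates 1, 2 and 3 and ranked 11, 22 and 23. The median rank of the 25 was 117 in replicate 1, 162 in replicate 2 and 188 in replicate 3, so replicate 1 ranked them higher than both others. Of the 25, 22 were among the first 300 of all 3 lists.

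Ribosomal protein peaks sat elsewhere in the promoter than the other members. All 25 summits lay within 100 bp of the TSS, from 83 bp upstream to 38 bp downstream, and none lay 101 to 300 bp upstream. Without ribosomal protein genes, 113 of 275 members (41.1%) had a summit 101 to 300 bp upstream, against 14.5% of 5699 other peaks. Of the 25 ribosomal summits, 16 were at divergent promoters. The 57 ribosomal peaks of the rest were placed alike, with 51 within 100 bp and 3 from 101 to 300 bp upstream.

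The other 15 gene lists held few members each. Polycomb and trithorax genes, which keep genes off or on through chromatin, were nearest to 8 (2.67%, against 0.643% of the rest). These were Trl, ph-p at ranks 20 and 71, brm, a chromatin remodeller (rank 73), trx, tara, ph-d and E(z), the methyltransferase of histone H3. GATA, Snail and zinc finger regulators had 5 (1.67% against 0.938%), namely cbt and sbb with 2 peaks each and shn. RNA-binding proteins also had 5 (1.67% against 1.27%), led by elav, a marker of neurons, msi, cpo and brat.

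Insulator and promoter-architecture proteins had 3 (1.00% against 0.295%), at Trl, Chro and Cp190. Homeobox and forkhead factors had 3 (1.00% against 1.01%), at fkh, foxo and zfh2. Mitochondrial ribosomal proteins (mRpL41, mRpL23), heat shock genes (Hsp83, Hsp27), ecdysone response genes (Eip75B, Hr4) and cytoskeleton and adhesion genes (jp, and tsr, the fly cofilin) had 2 each. Translation factors (eEF1gamma), tRNA genes and the list named for signalling ligands, receptors and antagonists had 1 each. The signalling member is the kinase Lk6, which is no ligand, receptor or antagonist, so that list is wider than its name. For that last list the share was 0.333% against 1.67% of the rest, and it does not hold every signalling gene: Raf, Mekk1, Toll-7, Tab2 and S, picked after the ranks were seen, are nearest to members and outside it.

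Small nuclear and nucleolar RNAs, microRNAs and bHLH and T-box regulators were nearest to none of the 300, which allows a share of up to 1.26% by the Wilson interval. In the rest they made up 0.539%, 0.382% and 0.764%. Trl is in both the Polycomb and the insulator list, so those counts are not separate observations.

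**Figure D4:**
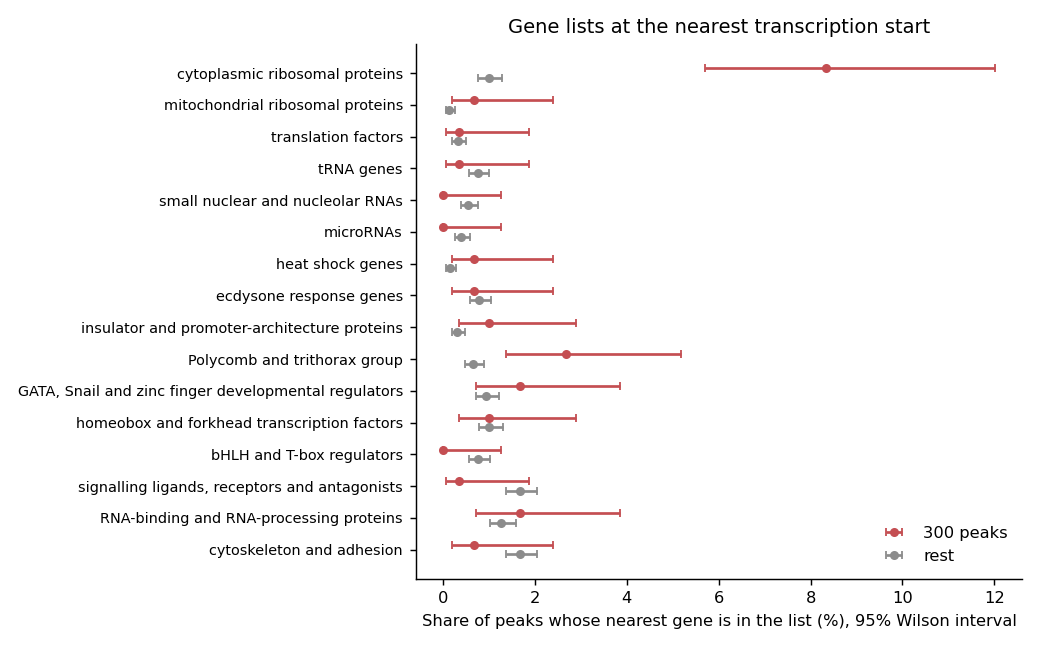
Share of peaks (horizontal, percent) whose nearest gene belongs to each of 16 lists, for the 300 and the rest. Points are shares and bars are 95% Wilson intervals. Cytoplasmic ribosomal proteins stand at 8.33% against 0.990%, and each other list holds at most 2.67% of the 300.

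G+C content was lower at the summits of the 300. Within 100 bp the mean was 36.6% (SD 7.46, n = 300) against 38.8% (SD 8.04, n = 5756), a difference of -2.17 points (95% interval -3.04 to -1.30). Within 50 bp it was 33.9% against 38.3%, a difference of -4.40 points. Within 200 bp the difference was gone, at 40.0% against 39.9% (0.065 points, -0.568 to 0.698). The flanks went the other way. In the 20 bp step centred 150 bp before the summit the mean was 44.5% (SE 0.875) for the 300 and 41.1% (SE 0.201) for the rest, and in the step centred 110 bp after it 43.6% (SE 0.917) and 40.6% (SE 0.201). A lower centre and higher flanks thus gave the same mean over 200 bp. The lower mean within 100 bp was not particular to the 300. It was 36.3% in ranks 301 to 600, 36.7% in 601 to 1200, 38.4% in 1201 to 3000 and 39.6% in 3001 to 6056. Inside the 300 it was 36.7% in ranks 1 to 50 and 38.8% in ranks 51 to 100, with lower means in ranks 101 to 300. For the first 600 peaks the difference was -2.43 points.

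Within the 300 there were 2 shapes. In the 20 bp before the summit, promoter summits of genes other than ribosomal protein genes had a mean of 30.5% (SE 0.878, n = 212) and promoter summits of the rest 39.2% (SE 0.265, n = 3464). Ribosomal protein summits had 54.2% (SE 2.88, n = 25). Outside promoters the 300 had 32.7% (SE 1.74, n = 63) and the rest 35.6% (SE 0.297, n = 2292). Over the window of 100 bp to each side, the difference outside promoters was -0.801 points (-2.84 to 1.24) and did not exclude 0, while at promoters it was -3.07 (-4.03 to -2.10).

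**Figure D5:**
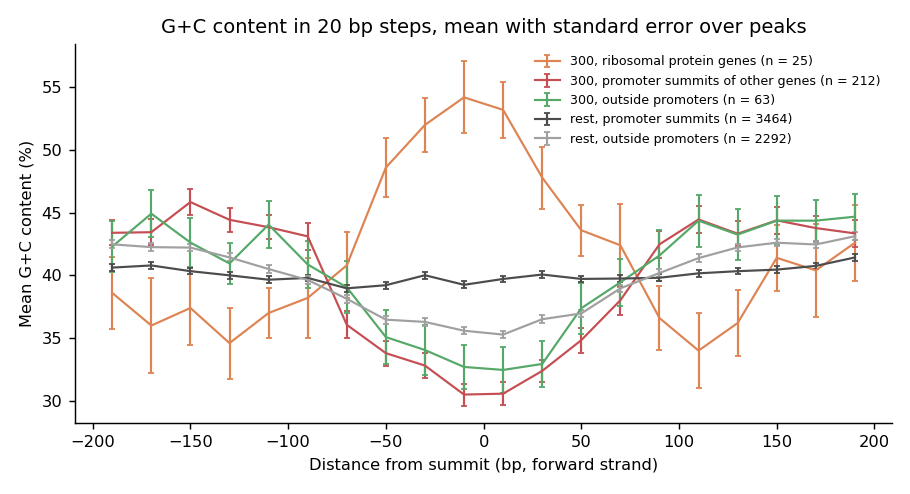
Mean G+C content (vertical, percent) in 20 bp steps by distance from the summit (horizontal, bp, forward strand), with standard errors over peaks, for 3 classes of the 300 and 2 of the rest. Non-ribosomal promoter summits of the 300 dip to 30.5% at the summit, ribosomal protein summits peak at 54.2%, and promoter summits of the rest stay near 39.2%.

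Of 30 motifs sought within 100 bp of the summit on both strands, 1 differed. They include words of known factors, promoter elements and sequences with no named factor, such as the CA repeat. The word of the TATA box, TATAAA, was present in 118 of the 300, or 39.3%, against 30.1% of the rest, a difference of 9.28 points (3.79 to 15.03). At the adjusted level its interval runs from 0.455 to 18.8 points, so the call is narrow. It was lost in 7 of 12 alternatives, among them the omission of replicate 1 (8.69 points) and of replicate 3 (8.35 points). Mean G+C content was lower in the same windows, and its part in this difference was not tested. At promoter summits alone the difference was 10.9 points (4.64 to 17.4), and outside promoters 4.21 points (-6.56 to 16.7). The word was counted anywhere in the window, so a hit does not place a TATA box at a TSS. In the rest it was in 29.6% of promoter windows and in 30.7% of the others.

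The Iroquois palindrome was in 26 of the 300, or 8.67% (95% Wilson interval 5.98 to 12.4%), against 11.6% of the rest. The difference of -2.97 points (-5.79 to 0.84) does not pass the adjusted level. By rank it was in 16% of the first 50 peaks, 6% of the next 50, 7% of ranks 101 to 200 and 8% of ranks 201 to 300. The value for the first 50 rests on 8 peaks (95% Wilson interval 8.34 to 28.5%), a range that holds the share of the rest. Over the 300 together, strong signal thus went without a higher share of these letters in this window, which says nothing of whether caup binds there. The DRE, TATCGATA, known for DREF and BEAF-32, was in 4.67% against 3.56%, the M1BP word GGTCACAC in 2.33% against 2.83%, and GAGAG, the word of the GAGA factor, in 24.3% against 26.0%. The CA repeat CACACACA was in 2.00% against 5.65%, a difference of -3.65 points (-4.89 to -1.28) that does not pass the adjusted level.

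Among all 2080 words of 6 bases, joined with their reverse complements and compared after the motifs had been seen, 10 (0.481%) differed between the 300 and the rest, all more common in the 300. The words that were less common by the most did not pass the level adjusted over all words. CAAACA was in 16.3% against 25.9%, a difference of -9.54 points (95% interval -13.5 to -4.80), and ACAACA in 12% against 20.03%, a difference of -8.03 points. Of the 10 words that differed, 3 are poor in G and C. TTAAAA was in 55.3% against 39.1%, TTTAAA in 36.7% against 25.6% and CTTACA in 17.0% against 9.21%. The other 7 hold 3 or more G or C. Windows of the 300 had less G+C on average, but more in the steps centred 90 bp before (42.2% against 39.7%) and after the summit (41.8% against 40.0%). GGCGTA lay at a median of 64.5 bp from the summit in the 300 and 49.5 bp in the rest, and CTACGC at 65.5 and 48.5 bp. Of the 7, only GCAACC lay nearer in the 300 (39.5 against 47.5 bp). The part of G+C content in these differences was not tested. AAGGGG was in 14.3% against 7.47%, GCAACC in 13.7% against 7.001%, CAACCC in 12.3% against 5.75%, GGCGTA in 11.0% against 4.57%, AACCCC in 11.0% against 5.21%, AGGGGC in 9.67% against 4.20% and CTACGC in 9% against 3.74%.

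Several of these overlap, such as GGCGTA with CTACGC and GCAACC with CAACCC. At least 1 of the 7 was in 124 of the 300, or 41.3%, against 26.4% of the rest. Both kinds together were in 76 of the 300, or 25.3%, against 11.0% of the rest. The words were called on these same peaks, so the joint shares are higher by that choice and are no further result. At least 1 of the 7 was in 37% of ranks 201 to 300 and in 25.3% of ranks 301 to 600. Joined over their overlap, CTACGCC was in 20 of the 300, or 6.67%, against 1.29%, and GCAACCC in 19, or 6.33%, against 2.10%. Both were picked after the shorter words were seen and carry no test. CTACGCC was in 12 of ranks 1 to 100, 7 of ranks 101 to 200 and 1 of ranks 201 to 300. Among the 20, 19 were promoter summits and 1 was the intron summit of Tlk.

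At ribosomal protein genes 7 of the 25 windows held GCAACC (28.0%), against 12.4% of the other 275 members. TTAAAA was in 8 of the 25 (32.0%), against 57.5% of the other members. These 2 values are a description, chosen after they were seen. Which words differed changed with the choice of peaks. Without replicate 3, 7 words differed, 4 of them among the 10, and for the first 150 peaks 4 did, 3 of them among the 10. For the first 600 peaks 10 differed, but just 2 of these, TTAAAA and TTTAAA, were among the 10, and the difference of GCAACC was 2.41 points in place of 6.67. With 50 bp to each side 9 differed, 1 of them among the 10, and with 200 bp 8 did, 3 of them among the 10.

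Neighbouring peaks were common around the 300. Another summit of the 6056 lay within 5 kb of 216, or 72.0%, against 63.7% of the rest, a difference of 8.34 points (2.87 to 13.3) that does not pass the adjusted level. Counting only summits 1 to 5 kb away it was 65.3% against 54.6%, and that difference does. The share did not follow rank within the 300, at 66.0% of ranks 1 to 50, 64.0% of ranks 51 to 100, 71.0% of ranks 101 to 200 and 80.0% of ranks 201 to 300, and for the first 150 peaks the difference was 3.35 points. The 5 members with the most summits within 10 kb were the peaks at CHES-1-like (11), cbt (9), Raf (9), sbb (8) and lncRNA:CR45695 (8), and the second cbt peak also had 8. Within the 300, 28 pairs lay within 10 kb of each other and involved 49 peaks, and 2 pairs had overlapping regions, at CG11811 and at ph-p, a Polycomb gene. At the other end, 47 of the 300 (15.7%) had no other summit within 10 kb, 7 of them at ribosomal protein genes, against 20.2% of the rest. That difference of -4.50 points (-8.33 to 0.153) was not called.

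Windows made mostly of masked repeats were rare in both sets. Masked bases made up a median of 20.4% of the window in the 300 and 17.9% in the rest. More than 50% of the window was masked in 11 of 300 (3.67%) and in 2.88% of the rest. The central 51 bp had another exact copy in the genome for none of the 300 and for 5 of the rest, and none of the 300 lay in an annotated transposable element, against 7 of the rest. A count of 0 in 300 allows a share of up to 1.26% by the Wilson interval.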

How the data were processed

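The authors deposited lists of regions from caup-GFP ChIP-seq of 3 embryo replicates, with a signal value, a −log10 q value and a summit offset for each region. Per the deposited notes, each replicate was called against a control alignment. Which aligner, caller and reproducibility cut-off were used is not given in the sources used here. The optimal dm6 set equals the 6056 pooled regions of highest signal. Each replicate region holding a combined summit gave the replicate rank, and lists on the other build were not used here.

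Positions are 1-based on dm6, which matches the RefSeq assembly release 6 used for sequence. TSSs came from Ensembl release 115 (17896 genes, 13945 protein-coding), without pseudogenes. Summits were classed in the order promoter, coding exon, untranslated exon, intron, intergenic. A divergent promoter has TSSs of opposite strands that start within 500 bp of each other and of the summit. Shares were compared with Newcombe intervals, printed at 95% and called where the interval at 0.05 divided by the number compared (40 shares, 20 bins or 2080 words) excluded 0. Mean G+C was compared with a 95% normal interval. Intervals cover counting error over peaks of 1 group, and peaks close together are not independent. Counting was tested on simulated data. Python 3.11.15, numpy 2.4.6, pandas 2.3.3 and scipy 1.17.1 were used.

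The members and lists were chosen with earlier results of these data known. Peaks are named by the nearest TSS: the first 30, up to 5 per location class, gene type and motif that differed, up to 4 per list, those next to the threshold, those with the most uneven ranks or most neighbours, and those farthest from a TSS. Others, such as holders of CTACGCC, were chosen after their values were seen. Alternatives were other numbers of peaks, merged summits, ranking by replicate ranks with and without each replicate, other windows and other reference peaks.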

Additional observations from a re-analysis of the deposited data

How the results depend on the processing

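Differences in the promoter share (17.4 to 22.7 percentage points over 10 alternatives), the intron share (-18.3 to -12.9 over 8), the divergent promoter share (8.41 to 14.7 over 8) and the upstream share added after the data were seen (18.6 to 30.5 over 10) kept direction and call under these alternatives. The promoter and intron shares come from exclusive classes and are not separate results. Among promoter summits alone, the divergent promoter difference was 7.22 points and was not called, and no alternative for it left out ribosomal protein genes. Core promoter and coding exon shares did not differ under any of their 8, none of which left out ribosomal protein genes. The neighbour share difference passed the adjusted level for the first 600 peaks (8.06 points), after merging summits closer than 1 kb (13.2) and for neighbours 1 to 5 kb away (10.7). It did not pass for the first 150 peaks (3.35), within 10 kb (4.50), against the 300 weakest (11.3), by mean replicate rank (8.31) or with each replicate omitted in turn (7.98 to 8.57). The G+C difference turned to 0.065 points with 200 bp to each side, and was -0.80 points outside promoters. The number of words that differed fell from 10 to 4 for the first 150 peaks and to 3 against the 300 weakest, and was 7 to 10 with each replicate omitted in turn. Of the 10, 2 were called again for the first 600 peaks, 1 with 50 bp and 3 with 200 bp to each side. Ranking by the mean replicate rank kept 289 of the 300, and 279, 289 and 280 without replicate 1, 2 and 3. No paired analysis was possible because the 3 replicates form 1 group. Without read counts, what depth limits cannot be given.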

Other observations

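Across the chromosome arms the 300 were spread like the rest. Arm 3R held 70 (23.3%, against 23.2% of the rest), 2L held 62 (20.7% against 18.2%), 3L held 57 (19% against 21.9%), 2R and X held 55 each (18.3%, against 19.8% and 16.5%), and chromosome 4 held 1, at zfh2. Each of these 6 shares of the rest lies inside the 95% Wilson interval of the share of the 300.

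Within the 300, the signal values of replicates 2 and 3 had a rank correlation of 0.883 (n = 299), those of replicates 1 and 2 of 0.778 (n = 299) and those of replicates 1 and 3 of 0.725 (n = 300). These are descriptions across peaks of shared libraries, without a test. In each of the 5 peaks named for uneven ranks, replicate 1 gave either the best or the worst of the 3 ranks. These 5 were picked for extreme ratios, and that of CG11811 sets regions of different summits against each other. The count does not by itself single out replicate 1.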
